A study of Vitis vinifera with 26 samples.

Results

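Proanthocyanidins, the condensed tannins of grape skin and seed, are flavan-3-ol polymers that are laid down in the young berry before ripening sets in. Leucoanthocyanidin reductase (LAR) makes catechin from leucoanthocyanidin, and anthocyanidin reductase (ANR) makes epicatechin from anthocyanidin, so that these enzymes lead flavonoid intermediates away from anthocyanin pigments. Their genes are switched on by R2R3-type MYB transcription factors, among which MYBPA1 acts on the proanthocyanidin branch and MYB5a and MYB5b act on several branches of the flavonoid pathway. The genes described here were the 6 grapevine genes LAR1, LAR2, ANR, MYBPA1, MYB5a and MYB5b, chosen by reference identifier. They correspond to 7 of 33229 assembled loci and 16 of 90542 isoforms, because MYB5b also has a locus of antisense transcripts.

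The 26 libraries were made from berry tissue of 8-year-old 'Pinot Noir' plants of Vitis vinifera at 6, 7 and 8 weeks after anthesis (WAA). Treated clusters received 5 ppm of 1-methylcyclopropene (1-MCP), which blocks ethylene receptors, for 24 h inside a bag, control clusters received a mock treatment, and sampling followed after 24 h. Each plant gave 1 treated and 1 control cluster, with 3 plants at 6 WAA and 5 plants each at 7 and 8 WAA. Skin, flesh and seed are not separated in the labels, the files annotate no marker of these tissues, and fewer cells of a type and less RNA per cell cannot be told apart in such samples.

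The deposited values are multiples of a constant step of each library, which was 1.027 to 1.055, and a value divided by that step is called a unit here. The libraries held 20368 to 23485 units over 13912 to 15261 detected loci. Of the loci detected in a library, 63.7% to 69.6% stood at 1 unit, and of the isoforms detected there 79.2% to 89.2% did. A unit is not corrected for length, and the number of reads behind it is unknown. Such values show mainly whether a gene was listed as present, so a gene at 1 unit throughout may still have changed in level, and a gene listed at 0 may have been missed.

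**Figure D1:**
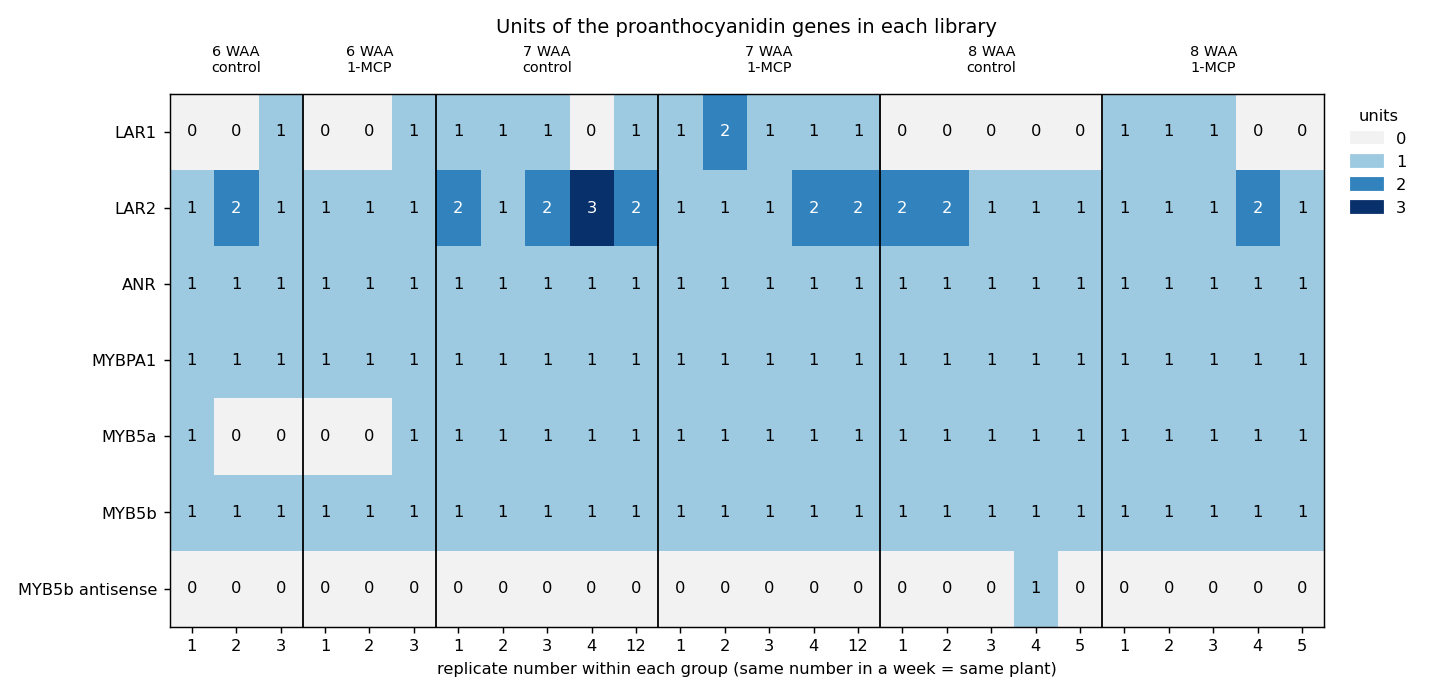
Units of the 6 genes and of the antisense locus of MYB5b (rows) in each of the 26 libraries (columns, by week, treatment and replicate number), with the number printed in each cell and shaded from 0 to 3 units. ANR, MYBPA1 and MYB5b stand at 1 unit in all 26 libraries, while LAR1, LAR2 and MYB5a vary.

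Of the 6 genes, 3 varied between libraries and 3 did not. LAR1 was detected in 14 of 26 libraries, most often at 7 WAA. MYB5a was detected in 2 of 6 libraries at 6 WAA and in every library of the later weeks. LAR2 was present in all 26 libraries with 1 to 3 units. ANR, MYBPA1 and MYB5b were at 1 unit in all 26 libraries. In limma, with Benjamini-Hochberg adjustment over every tested locus, none of the 6 genes passed the threshold of 0.05 in any comparison between treated and control clusters or between weeks within 1 treatment. Few loci of any kind passed, 0% to 0.043% for effects of 1-MCP and 0.145% to 1.19% between weeks, so 0 of 6 genes is not particular to this set. Of the 78 combinations of a gene and a comparison, 8 had an unadjusted p under 0.05, 4 of LAR1 and 4 of MYB5a, and 39 belong to the genes at 1 unit throughout. Over all tested loci 4.45% to 8.23% had such a p in a comparison. The 8 combinations come from 2 genes in comparisons that share libraries, so they are not separate results and cannot be set against that share. When the clusters of a plant were averaged, a comparison chosen after the values were seen, MYB5a passed from 6 WAA to both later weeks. In these fits 0.344% (to 7 WAA) and 2.38% (to 8 WAA) of loci passed. The spread of MYB5a there lay in the 3 plants of 6 WAA alone, and it met the filter only through the later weeks.

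LAR1 (VIT_201s0011g02960, locus XLOC_000989) encodes the enzyme that forms catechin. The files place it within an interval of chromosome 1 from 2618470 to 2636395, and they list 2 annotated isoforms of 2030 and 2111 bases. Only the isoform of 2030 bases was ever detected. At 6 WAA control replicates 1, 2 and 3 had LAR1 at 0, 0 and 1 units. The treated clusters of the same plants had 0, 0 and 1 units. The same plant, replicate 3, thus held the gene in both of its clusters at this week, and the other plants held it in neither.

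At 7 WAA LAR1 stood at 1 unit in control replicates 1, 2, 3 and 12 and was listed at 0 in control replicate 4. In the treated clusters it had 2 units in replicate 2 and 1 unit in replicates 1, 3, 4 and 12. The mean of the controls was 0.8 ± 0.45 units and that of the treated clusters 1.2 ± 0.45 units (SD, n = 5). At 8 WAA it was listed at 0 in all 5 controls. Among the treated clusters it stood at 1 unit in replicates 1, 2 and 3 and was listed at 0 in replicates 4 and 5, with a mean of 0.6 ± 0.55 units (SD, n = 5).

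Comparison of the clusters of each plant asked whether blocking ethylene perception for 24 h altered LAR1. Treated clusters had more units than the control cluster in 5 of 13 plants, 2 at 7 WAA and 3 at 8 WAA, and fewer in 0, and both clusters were equal in 8. At 8 WAA the log2 difference on the log2(value + 1) scale was 0.61 ± 0.20 (SE, 95% confidence interval 0.17 to 1.06), which did not pass over all loci (limma, adjusted p = 0.870). The groups overlapped at 0 units. In this comparison 0 of 18622 tested loci passed, so percent called was 0, and 841 had an unadjusted p under 0.05. At 7 WAA the log2 difference was 0.32 ± 0.20 (limma, adjusted p = 0.884), where 0.00537% of tested loci passed, and at 6 WAA it was 0 (95% confidence interval -0.57 to 0.57), where 0.0430% passed. Averaged over the weeks it was 0.31 ± 0.13 (limma, adjusted p = 0.794), where 0.0376% passed.

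The effect of 1-MCP on LAR1 was not shown to differ between weeks. The effect at 8 WAA exceeded that at 6 WAA by 0.61 ± 0.33 on the log2 scale (limma, adjusted p = 0.978) and that at 7 WAA by 0.30 ± 0.28 (limma, adjusted p = 0.985). At 8 WAA the controls held 20368 to 22076 units in all and the treated clusters 21369 to 22611. The part of these totals in the LAR1 values was not tested beyond a scaling. After scaling to equal library totals the difference at 8 WAA was 0.62 (limma, adjusted p = 0.805). Libraries also differed in their step, and a setting chosen after seeing the data kept only the plants whose libraries both had the commonest step. With these the LAR1 difference at 8 WAA was 0, from the 1 plant of that week that was left, in which both clusters were at 0, and the difference averaged over the weeks was 0.10 (limma, adjusted p = 0.973). Under this setting 443 of 17080 loci passed at 8 WAA and 529 averaged over the weeks, against 0 and 7 of 18622 with all plants.

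**Figure D2:**
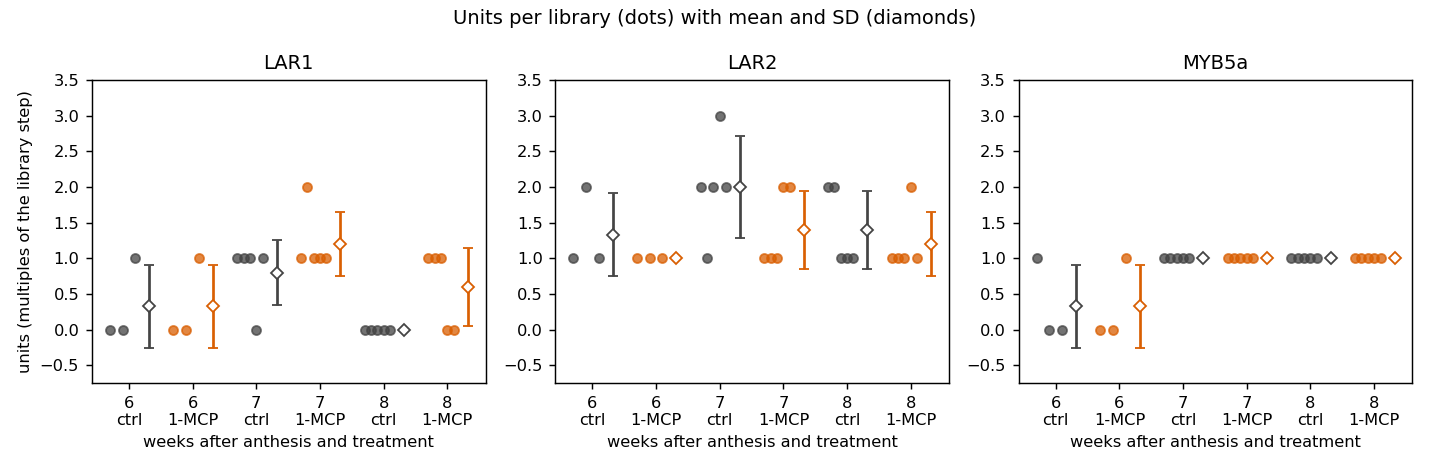
Units of LAR1, LAR2 and MYB5a in each library (dots, y axis) by week after anthesis and treatment (x axis, grey for control and orange for 1-MCP), with the group mean and SD as an open diamond and bar. LAR1 is at 0 in all 5 controls of 8 WAA, LAR2 is highest in controls of 7 WAA, and MYB5a is at 1 unit in all libraries after 6 WAA.

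The comparison of weeks followed LAR1 through the onset of ripening. In controls it was present in 1 of 3, 4 of 5 and 0 of 5 clusters at 6, 7 and 8 WAA. Between 7 and 8 WAA the log2 difference was -0.82 ± 0.24 (SE, 95% confidence interval -1.35 to -0.29), which did not pass (limma, adjusted p = 0.279), and 0.594% of 17172 tested loci passed in this comparison. It did pass when control replicate 4 of 7 WAA, the only control of that week without LAR1, was left out (limma, adjusted p = 0.0443). That removes the 1 library against the pattern and leaves no spread at 7 or 8 WAA, and among controls LAR1 met the filter of 3 libraries only through 7 WAA, where it is high. Over the other settings the adjusted p reached 0.478. In treated clusters the gene was present in 1 of 3, 5 of 5 and 3 of 5 clusters at the same weeks. There the log2 difference from 7 to 8 WAA was -0.52 ± 0.29 (limma, adjusted p = 0.773), where 0.337% of loci passed, and from 6 to 7 WAA it was 0.8 ± 0.34 (limma, adjusted p = 0.774), where 0.145% passed.

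From 6 to 7 WAA in controls LAR1 differed by 0.48 ± 0.28 on the log2 scale (limma, adjusted p = 0.824), where 0.169% of loci passed. From 6 to 8 WAA it differed by -0.34 ± 0.28 in controls (limma, adjusted p = 0.890), where 1.19% passed, and by 0.27 ± 0.34 in treated clusters (limma, adjusted p = 0.940), where 0.477% passed. The order of LAR1 means was 7 WAA treated, 7 WAA control, 8 WAA treated, both groups of 6 WAA and 8 WAA control, and no neighbours in that order differed by more than the larger of their SDs. Controls of 8 WAA also held fewer detected loci in all, 13912 to 14542 against 14496 to 15261 in controls of 7 WAA, and the part of this in the LAR1 values was not tested.

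LAR2 (VIT_217s0000g04150, locus XLOC_012544) encodes a second leucoanthocyanidin reductase. It lies within an interval of chromosome 17 from 4274222 to 4305715. In controls it had 1, 2 and 1 units in replicates 1, 2 and 3 of 6 WAA. Controls of 7 WAA had 2, 1, 2, 3 and 2 units in replicates 1, 2, 3, 4 and 12, and controls of 8 WAA had 2, 2, 1, 1 and 1 units in replicates 1 to 5. Controls of 7 WAA thus had the highest mean, 2 ± 0.71 units (SD, n = 5), against 1.33 ± 0.58 (n = 3) at 6 WAA and 1.4 ± 0.55 (n = 5) at 8 WAA.

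In treated clusters LAR2 had 1 unit in all 3 replicates of 6 WAA. At 7 WAA replicates 4 and 12 had 2 units and the others 1 unit, with a mean of 1.4 ± 0.55 (SD, n = 5). At 8 WAA replicate 4 had 2 units and the others 1 unit, with a mean of 1.2 ± 0.45 (SD, n = 5). All groups overlapped at 1 unit.

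Treated clusters had fewer LAR2 units than the control cluster in 6 of 13 plants, more in 1 and equal units in 6. The log2 difference averaged over the weeks was -0.22 ± 0.11 (SE, 95% confidence interval -0.46 to 0.03), which did not pass (limma, adjusted p = 0.841). It was -0.20 ± 0.23 at 6 WAA (limma, adjusted p = 1), -0.33 ± 0.17 at 7 WAA (adjusted p = 0.867) and -0.12 ± 0.17 at 8 WAA (adjusted p = 1). Between weeks the largest LAR2 difference was 0.37 ± 0.25 from 6 to 7 WAA in controls (limma, adjusted p = 0.898), followed by -0.32 ± 0.21 from 7 to 8 WAA in controls (adjusted p = 0.901). In the same 13 plants LAR1 was higher in the treated cluster in 5, lower in 0 and equal in 8. The difference between the responses of these genes was not tested.

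Every difference in LAR2 units came from how many of its isoforms were listed, since no LAR2 isoform exceeded 1 unit. Of its 8 annotated isoforms, with lengths of 1115 to 2601 bases, 4 were detected in some library. Isoform 2, of 2195 bases, was at 1 unit in all 26 libraries. Isoform 3, of 2507 bases, was added in control replicate 2 of 6 WAA, replicates 3 and 12 of 7 WAA and replicate 1 of 8 WAA, and in treated replicate 4 of 8 WAA. Isoform 8, of 2598 bases, was added in 3 controls, replicates 1 and 4 of 7 WAA and 2 of 8 WAA, and in 0 treated clusters. Isoform 1, of 2417 bases, was added in control replicate 4 and in treated replicates 4 and 12 of 7 WAA.

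In all, an isoform beside isoform 2 was listed in 7 of 13 controls and in 3 of 13 treated clusters. The step of the library moved with this count, since such an isoform was listed in 5 of the 8 libraries with another step than 1.027 and in 5 of the 18 with that step. Of these 8 libraries 6 were controls, of which 5 listed an added isoform, and 2 were treated, of which 0 did. Among libraries with the commonest step the added isoforms were in 2 of 7 controls and 3 of 11 treated clusters. A setting chosen after seeing the data kept only the plants whose libraries both had the commonest step. The LAR2 effect of 1-MCP was then 0 at 7 WAA, against -0.33 with all plants. Averaged over the weeks it was -0.066 against -0.22. At 8 WAA it was 0 against -0.12, from the 1 plant left, and at 6 WAA it stayed at -0.20. The part of the step in the LAR2 values was not tested otherwise.

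**Figure D3:**
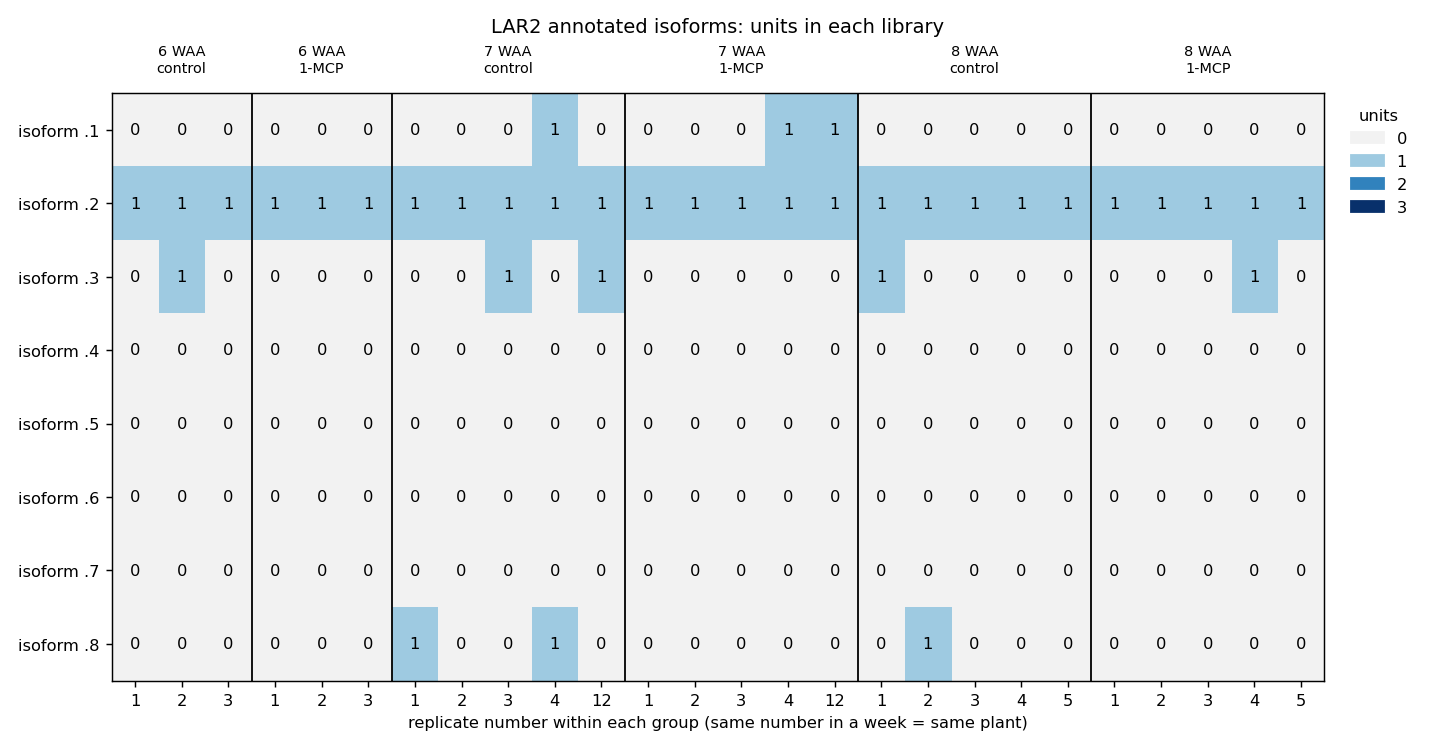
Units of the 8 annotated LAR2 isoforms (rows) in each of the 26 libraries (columns, by week, treatment and replicate number), with 0 or 1 printed in each cell. Isoform 2 is listed in every library, isoforms 1, 3 and 8 in 3, 5 and 3 libraries, and isoforms 4 to 7 in 0.

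ANR (VIT_200s0361g00040, locus XLOC_030960) encodes the reductase that forms epicatechin. The files place it within 25598320 to 25605585 of the unplaced sequence chrUn. It stood at 1 unit in all 26 libraries, in every case through its isoform of 2319 bases, and its isoform of 3634 bases was listed at 0 throughout. The deposited values, 1.027 to 1.055, differed only as the steps of the libraries do, so the differences fitted for ANR carry no information on its level and are not given.

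Among the regulators, MYBPA1 (VIT_215s0046g00170, locus XLOC_010035, chromosome 15, 17211621 to 17213715) activates LAR and ANR promoters in grapevine. MYB5b (VIT_206s0004g00570, locus XLOC_023680, chromosome 6, 744301 to 746168) is a general flavonoid activator of the berry. Each has 1 annotated isoform, of 2007 and 1611 bases, and each stood at 1 unit in all 26 libraries. Such a record was not particular to these genes. Of the 13653 loci whose longest isoform has 1500 to 4000 bases, as those of the 6 genes do, 8.4% were at 1 unit in all 26 libraries, 37.4% were detected in all 26 and 14.1% in 0. The antisense locus of MYB5b (XLOC_024483, 1598 bases, the same interval) was listed at 1 unit in control replicate 4 of 8 WAA and at 0 in the other 25 libraries. The sources used here do not say whether strand was used, so whether reads of MYB5b and of its antisense locus were told apart is unknown.

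MYB5a (VIT_208s0007g07230, locus XLOC_028528), a MYB activator of the general flavonoid pathway, was the regulator that varied. It lies within an interval of chromosome 8 from 20861537 to 20877970 and has 1 annotated isoform of 1608 bases. At 6 WAA it was at 1 unit in control replicate 1 and listed at 0 in control replicates 2 and 3. In the treated clusters of that week it was at 1 unit in replicate 3 and listed at 0 in replicates 1 and 2. From 7 WAA on it stood at 1 unit in all 10 controls and all 10 treated clusters. The group means were 0.33 ± 0.58 units (SD, n = 3) in both groups of 6 WAA and 1 ± 0 units (SD, n = 5) in each later group.

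Within 1 treatment the difference of MYB5a between weeks did not pass. In controls the log2 difference from 6 to 7 WAA was 0.69 ± 0.19 (SE, 95% confidence interval 0.28 to 1.10; limma, adjusted p = 0.316). In treated clusters it was 0.68 ± 0.19 (limma, adjusted p = 0.346). From 6 to 8 WAA it was 0.69 ± 0.19 in controls (limma, adjusted p = 0.164) and 0.68 ± 0.19 in treated clusters (adjusted p = 0.169). These comparisons rest on 3 libraries of 6 WAA, of which 1 held the gene in each treatment. All later libraries were at 1 unit, so the spread shared over the weeks is too small for 6 WAA. MYB5a thus met the filter of 3 libraries only through the later weeks, where it is high.

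When both clusters of each plant were averaged, the 3 plants of 6 WAA had 0.5, 0 and 0.5 units of MYB5a and the 10 plants of later weeks had 1 unit each. MYB5a then rose by 0.68 ± 0.09 on the log2 scale from 6 to 7 WAA (limma over 13 plants, adjusted p = 0.00964) and by 0.68 ± 0.09 from 6 to 8 WAA (limma, adjusted p = 0.00293). In these fits 0.344% and 2.38% of 18622 loci passed. The calls were kept without any 1 of the 13 plants, with adjusted p up to 0.0289 from 6 to 7 WAA and up to 0.00990 from 6 to 8 WAA (limma). This adds no separate support, since leaving out a plant of 7 or 8 WAA leaves all others of those weeks at 1 unit. Without plant 2 of 6 WAA the others of that week were equal at 0.5 units. The residual SD then fell from 0.1317 to 0.0039, a spread from the library steps alone. The spread behind the test lies in the 3 plants of 6 WAA alone, since every plant of 7 and 8 WAA was at 1 unit, and the test was chosen after the values were seen. MYB5a was present in 1 of 3 clusters of each treatment at 6 WAA. It thus met the filter of 3 libraries only through 7 and 8 WAA, where it is high. LAR1 did not pass in the same fits, with log2 differences of 0.64 ± 0.26 from 6 to 7 WAA (limma, adjusted p = 0.561) and -0.67 ± 0.22 from 7 to 8 WAA (adjusted p = 0.315), where 1.30% of loci passed.

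No shift of MYB5a in 1 direction with 1-MCP was seen, but only 6 WAA could show one in these units. At 6 WAA the treated cluster had 1 unit more in 1 plant, 1 unit less in another and the same in the third. At 7 and 8 WAA all 10 plants were equal at 1 unit in both clusters, which carries no information on a change in level. The log2 difference at 6 WAA was 0 (95% confidence interval -0.56 to 0.56; limma, adjusted p = 1). That interval uses a spread shared over all weeks, to which the 10 equal plants of 7 and 8 WAA add almost none. The 3 plants of 6 WAA had differences with an SD of 1 unit, so the interval is too narrow for that week. Whether 1-MCP changed MYB5a cannot be judged from these 3 plants.

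**Figure D4:**
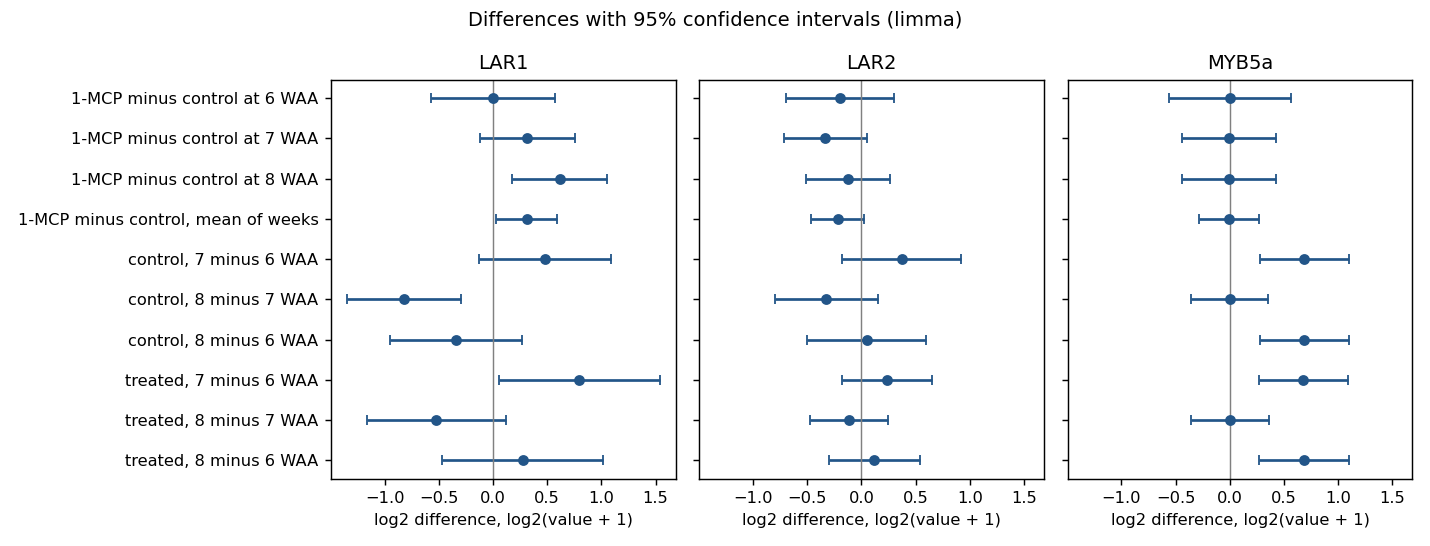
Log2 differences of LAR1, LAR2 and MYB5a on the log2(value + 1) scale (x axis, dots) with 95% confidence intervals (bars) from limma, for 1-MCP minus control and for weeks within each treatment (y axis). Before adjustment over all loci the intervals leave out 0 for MYB5a from 6 WAA to both later weeks and for LAR1 in 4 comparisons. Among these are 1-MCP at 8 WAA (0.17 to 1.06) and controls from 7 to 8 WAA (-1.35 to -0.29) for LAR1. After adjustment no point passes. The MYB5a intervals use a spread shared over all weeks, although its units vary only at 6 WAA, so they are too narrow for that week.

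Each of LAR1, LAR2, ANR and MYB5a shares the interval given in the files with another assembled locus, so those intervals are wider than the genes, and reads near shared ends may be uncertain. The locus that shares the interval of LAR1 (VIT_201s0011g02950) was detected in 3 of 3, 5 of 5 and 3 of 5 controls and in 2 of 3, 4 of 5 and 3 of 5 treated clusters at 6, 7 and 8 WAA. It was present in 3 controls of 8 WAA in which LAR1 was listed at 0. The locus beside MYB5a (VIT_208s0007g07240) was detected in all 26 libraries, including the 4 of 6 WAA without MYB5a. The part of shared reads in the values of LAR1 and MYB5a was not tested.

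Other flavonoid genes were taken from a list of 25 identifiers recalled from the literature, whose roles the files do not annotate. Of these 24 were found, as 24 loci, of which 13 were detected in all 26 libraries, 8 in some and 3 in 0. In 12 of 13 comparisons 0 of the 19 or 20 tested loci passed in either direction. In controls from 7 to 8 WAA 1 of 19 passed, where 0.594% of all loci did, and it was higher at 8 WAA (limma, adjusted p = 0.0165). The median log2 difference there was -0.001 for the 19 loci and -0.001 for all 17172 tested loci. The locus that passed, XLOC_015117, spans VIT_218s0001g12800 and a neighbouring identifier. It was detected in 0 of 5 controls at 7 WAA and 5 of 5 at 8 WAA, where LAR1 was detected in 4 of 5 and 0 of 5. With 2 of 3 controls at 6 WAA, it met the filter of 3 libraries only through 8 WAA, where it is high. In treated clusters of 8 WAA it was detected in 2 of 5 and LAR1 in 3 of 5. Whether these patterns differ was not tested.

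Among 17465 other tested loci with a reference identifier, those with the most similar pattern over the 26 libraries were named for the genes that vary, by the Pearson correlation of log2(value + 1). For LAR1 they were VIT_211s0016g05180 (r = 0.722), VIT_207s0005g02370 (0.686) and VIT_207s0005g02760 (0.684). For LAR2 they were VIT_212s0035g01250 (r = 0.748), VIT_202s0025g04660 (0.726) and VIT_208s0058g00130 (0.677). For MYB5a they were VIT_209s0002g08680 (r = 0.776), VIT_216s0039g01670 (0.735) and a locus spanning VIT_211s0103g00200 and VIT_211s0103g00210 (0.722). The libraries are shared by all of these loci and values are mostly 0 or 1 unit, so the correlations only describe values in common libraries. LAR2 and the loci named for it were detected in all 26 libraries. Their correlations thus follow the number of units and the library step, and not presence. VIT_207s0005g02760, named for LAR1, was also detected in all 26.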

How the data were processed

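Libraries of berry RNA followed standard Illumina preparation, per the labels' protocols. The authors deposited a signal for each of 90542 assembled isoforms in each library, and a table of isoform identifiers, intervals and lengths. The submitters' processing notes name Bowtie2 2.2.3. How the signal was computed, and on which build and annotation, is not given in the sources used here. Intervals are printed as deposited. The names of the 6 genes come from the definition of the set, and 0 of their identifiers matched the RefSeq gene table, although it holds the symbols of 4. Genes and lists were chosen with earlier results of these data known.

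Isoform values were summed per assembled locus and divided by the library's commonest value above 0.5, which gives units. Of locus sums above 0, 97.7% to 98.5% lay within 0.01 of a whole number. A locus was called detected at 0.5 units or more. Loci reaching a value of 1 in 3 or more libraries of a fit were tested as log2(value + 1) with limma 3.58.1 in R 4.3.3, with Benjamini-Hochberg adjustment over all tested loci and a threshold of 0.05. Effects of 1-MCP were fitted in 26 libraries with the 13 plants as blocks, since the series design takes both clusters from 1 plant, and weeks in the 13 libraries of each treatment. Fold changes on this scale understate changes of low genes. Whether plants were shared between weeks is not stated. The description label calls all libraries treated, so control status rests on source names and titles. The fits for 1-MCP at 7 WAA and for controls from 7 to 8 WAA were tested on simulated data with known changes. The share of false calls came out above the threshold in 1 run of each, so calls near it may be less certain than their adjusted p states. The simulation shuffled each locus separately over the libraries, which removes the pairing of clusters within plants. It thus cannot say how many calls in the real libraries are false. The fit over averaged clusters, in which MYB5a passed, was not simulated. All 6 genes, the loci most like them and any locus of the recalled flavonoid list past the threshold are named. Of 3 identifiers recalled for tissue, VIT_218s0041g01880 was detected in 6 of 26 libraries and VIT_216s0039g02230 and VIT_202s0033g00410 in 0.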

Additional observations from a re-analysis of the deposited data

Results flagged for a closer look

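In 4 of 28 combinations of a locus and a group of 5 libraries, 1 library stood apart from the other 4, which were equal. The measure is set so that chance flags about 1 in 20 groups of continuous values, a rate that does not apply here, since with values of mostly 0 or 1 unit any lone deviation is flagged. LAR1 was listed at 0 in control replicate 4 of 7 WAA and at 2 units in treated replicate 2 of 7 WAA, against 1 unit in the others of each group. LAR2 had 2 units in treated replicate 4 of 8 WAA against 1 in the others. The antisense locus of MYB5b had 1 unit in control replicate 4 of 8 WAA against 0 in the others.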

How the results depend on the processing

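Values are mostly 0 or 1 unit and the number of reads is unknown, so gradual changes of ANR, MYBPA1 and MYB5b were not detectable. For the effects of 1-MCP, none of the 6 genes passed in limma under any setting run, without the replicate block for plants included (0 genes, LAR1 at 8 WAA again 0.61, adjusted p = 1). Between weeks, 0 genes passed in limma with another pseudocount (0.1), filter or scaling, with whole units, with all 26 libraries or with only the loci that vary, and LAR1 was not testable in controls with the filter at 6 libraries.

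A pair of settings chosen after seeing the data changed a value. With both clusters of each plant averaged, 1 gene, MYB5a, passed from 6 to 7 and from 6 to 8 WAA, where 0.344% and 2.38% of loci passed. The LAR1 difference from 6 to 8 WAA was then -0.033, below 0 where treated clusters alone gave 0.27. With only plants of the commonest step, LAR2's effect at 7 against 6 WAA was 0.197 and LAR1's at 8 against 7 WAA was -0.296, both turned in sign and not called. At 8 WAA this setting keeps 1 plant, with LAR1 at 0 in both clusters, so that sign rests on the plants left out, and 514 of 17080 loci passed in that comparison.

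When 1 library was left out, 0 to 1 genes passed from 6 to 7 and from 6 to 8 WAA in controls and in treated clusters. This was MYB5a without control replicate 1 or treated replicate 3 of 6 WAA, the libraries that held it, after which its values did not vary within any week. From 7 to 8 WAA in controls 0 to 1 genes passed, LAR1 without control replicate 4 of 7 WAA. When 1 plant was left out, the MYB5a effect ranged from -0.51 to 0.51 at 6 WAA, from -0.518 to 0.501 at 7 against 6 WAA and from -0.514 to 0.505 at 8 against 6 WAA, and that of LAR2 at 8 against 6 WAA from -0.125 to 0.195. LAR2 from 6 to 8 WAA in controls ranged from -0.05 to 0.246. None of these was called, and the cause was not tested.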
